A study of Mus musculus with 7 samples.

Results

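The p53 pathway was followed through 32 genes in RNA-seq of whole mouse kidneys injured with cisplatin. The 32 genes are known targets or regulators of p53, taken as a named list from the 54532 genes of the count table, with the BCL2 family and the death receptors left out. All 32 had enough reads to be tested. All mice were C57BL/6J of 6 to 8 weeks, male per the series' design text, and all had received cisplatin, a platinum chemotherapy drug, at 20 mg/kg through the tail vein. The DXZ group of 3 libraries had in addition been given intravenous DXZ at 40 mg/kg, first 30 min ahead of the cisplatin and then every 24 h, for 3 days in all. The saline group had 4 libraries, labelled as cisplatin with saline. The labels use the name DXZ without expanding it, and it is kept so here. Kidneys that had not received cisplatin were not analysed here, so every value below sets an injured kidney against another injured kidney. Nothing in the labels ties each library to an animal of its own, so the p-values speak only of the spread among these samples. The design text asks which genes are expressed differently in DXZ and saline kidneys.

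The p53 protein, encoded by Trp53 in the mouse, is a transcription factor that is made continuously and destroyed continuously, chiefly because the ubiquitin ligase Mdm2 marks it for degradation. DNA damage frees p53 from Mdm2, and p53 then switches on genes that halt the cell cycle, repair DNA, remodel metabolism, send out stress signals or start cell death, together with Mdm2 itself, which closes a feedback loop. Cisplatin crosslinks DNA, and tubule cells of the kidney are known to activate p53 target genes after it.

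Of the 32 genes, 5 rose in DXZ kidneys and 0 fell by edgeR's quasi-likelihood test at an adjusted p below 0.05. The 5 were Btg2, a brake on proliferation, Psrc1, a regulator of spindle microtubules, Aen, an apoptosis-enhancing nuclease, Pidd1, a death-domain scaffold protein, and Gdf15, a secreted stress hormone. They make up 15.6% of the list, where 3.24% of all 15351 tested genes were called higher and 2.31% lower. The median log2 fold change, DXZ over saline, was 0.62 over the 32 genes and 0.01 over all tested genes, and the fold changes ran from 0.05 for Sesn2 to 1.41 for Psrc1. All 3 DXZ libraries lay above all 4 saline libraries for 16 of the 32 genes (50%, against 12.8% of all tested genes), and below all of them for 0 (against 11.3%). At an unadjusted p below 0.05, 19 were higher (59.4%, against 14.0% of all tested genes) and 0 lower. DESeq2 called 12 higher (37.5%, against 6.86% of the genes it tested) and 0 lower.

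**Figure D1:**
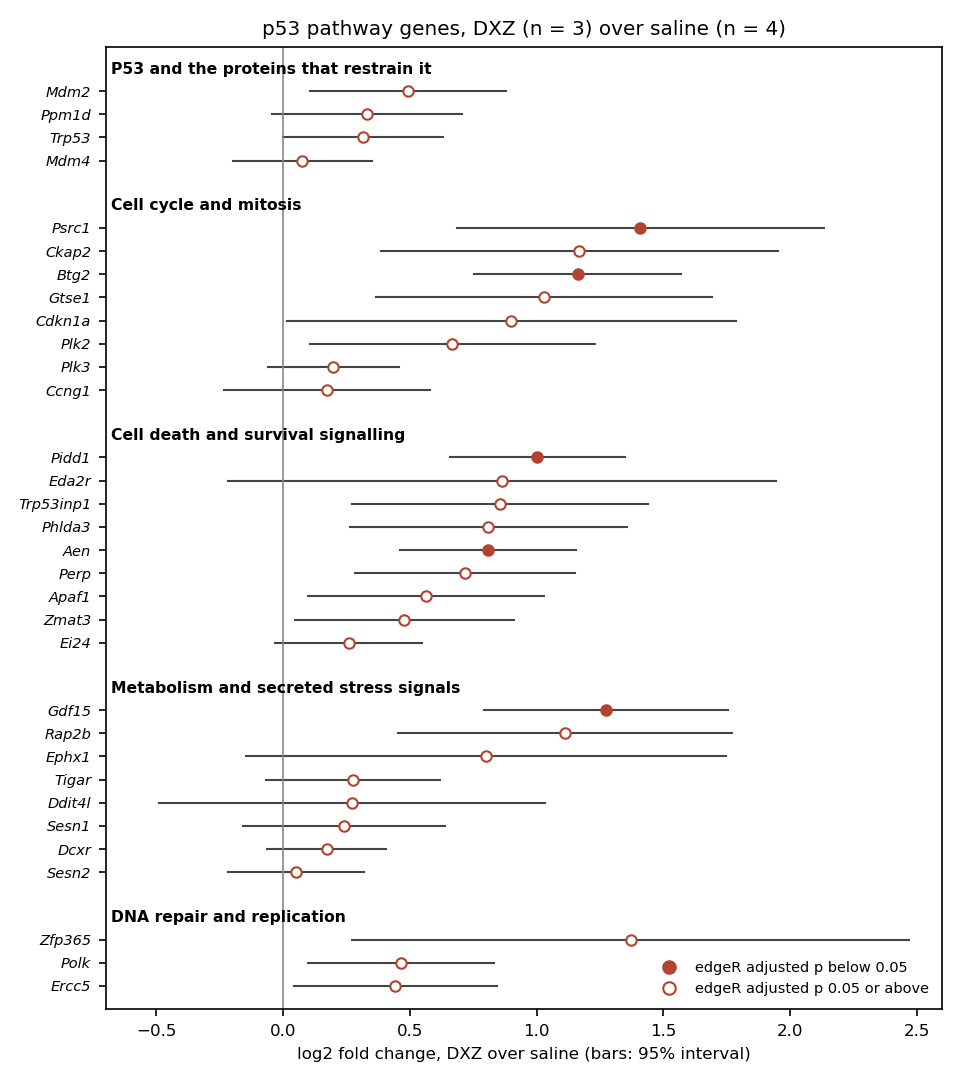
log2 fold change of each of the 32 p53 pathway genes, DXZ (n = 3) over saline (n = 4), from edgeR's fit, with 95% intervals as bars, grouped by role. Filled points are the 5 genes with an adjusted p below 0.05; all 32 points lie at or above 0.05, and wide bars mark genes such as Zfp365 whose libraries scatter.

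The calls rested on few libraries. Without DXZ 2, without DXZ 3 or without saline 4, edgeR called 0 of the 32 genes, while 10, 19 and 12 of them had an unadjusted p below 0.05. In either direction, 3191 of 15705, 3248 of 15723 and 3074 of 15205 tested genes had one in the same fits. The share of all tested genes called higher was then 0.00%, 0.496% and 0.0132%. Without DXZ 1 it called 6 (against 5.07% of all tested genes), and without saline 1, saline 2 or saline 3 it called 5, 4 and 4 (against 1.26%, 1.26% and 1.42%). No fold change of the 5 called genes moved by more than 1.5 times when a library was left out, and the median of the 32 stayed between 0.46 and 0.77.

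Total counts were 16243682 to 17498520 in the DXZ libraries and 16058157 to 18133736 in the saline libraries, and mitochondrial transcripts took 5.18% to 8.35% of counts over the 7 libraries. A pair of libraries stood apart. Saline 1 had the highest summed level of 12 proximal tubule markers, 11660 CPM (counts scaled to library size), against 4955 to 7138 CPM in the other saline libraries, and the lowest of 10 injured tubule markers, 8315 CPM. DXZ 1 had the highest summed levels of macrophage (243.5 CPM) and fibroblast (813.4 CPM) markers, which were 33.6 CPM and 57.45 CPM at their lowest in the DXZ group. Proximal tubule markers were present in all 7 libraries, at 1828 to 2797 CPM in DXZ kidneys and 4955 to 11660 CPM in saline kidneys; 6 of 12 fell and 0 rose. Injured tubule markers summed to 22140 to 36560 CPM in DXZ kidneys and 8315 to 23810 CPM in saline kidneys; 4 of 10 rose and 0 fell. In bulk tissue, fewer cells of a type and less RNA per cell cannot be told apart. Leaving out saline 1 together with DXZ 1, a choice made after seeing the data, 9 of the 32 genes were called higher (against 4.10% of all tested genes). They were the same 5 with Cdkn1a, Ckap2, Ephx1 and Trp53inp1.

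Trp53 and the genes that restrain its protein had small fold changes. Of these 4 genes 0 passed the edgeR test, their median log2 fold change was 0.32, 1 had an unadjusted p below 0.05, and the groups overlapped for all 4. Trp53 (Ensembl ENSMUSG00000059552; chromosome 11, 69580359 to 69591873, plus strand; GRCm38, like all gene positions below) had 61.8, 49.2 and 43.2 CPM in DXZ 1 to 3, against 42.4, 46.4, 38.9 and 37.7 CPM in saline 1 to 4. DXZ 2 and DXZ 1 lay above every saline library and DXZ 3 lay inside their range. The log2 fold change was 0.31 (SE 0.14, edgeR BH-adjusted p = 0.199), and it was 0.16 without DXZ 1. These are transcript levels; p53 protein was not measured.

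Mdm2 (chromosome 10, 117688875 to 117710758, minus strand), both the ligase that removes p53 and a target of it, had 211, 229.8 and 161 CPM in DXZ 1 to 3, against 121, 176, 144 and 128 CPM in saline 1 to 4. DXZ 1 and DXZ 2 were above all saline libraries, whereas DXZ 3 was below saline 2. Its log2 fold change was 0.49 (95% interval 0.11 to 0.88, edgeR BH-adjusted p = 0.116). Ppm1d, which encodes the phosphatase Wip1 that strips activating phosphates from p53, averaged 24.4 ± 3.31 CPM in DXZ kidneys (SD, n = 3) and 19.4 ± 3.21 CPM in saline kidneys (SD, n = 4), with a log2 fold change of 0.33 (edgeR BH-adjusted p = 0.246) that was 0.20 without DXZ 2. Mdm4, the Mdm2 relative that binds p53 and blocks its activity, was at 36.5, 49.7 and 47.3 CPM in DXZ 1 to 3 and 41.6, 43.0, 39.9 and 44.3 CPM in saline 1 to 4. The DXZ values of Mdm4 bracket the saline values, and its log2 fold change of 0.08 (95% interval -0.20 to 0.35) was -0.02 without DXZ 2.

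Genes that act on the cell cycle and mitosis had the highest median fold change of the 5 roles. Of 8, 2 rose by edgeR's test, Btg2 and Psrc1 (against 3.24% of all tested genes). The median log2 fold change of the 8 was 0.97. For 5 of the 8 every DXZ library lay above every saline library (against 12.8% of all tested genes). Btg2 (ENSMUSG00000020423; chromosome 1, 134075170 to 134079120, minus strand), an antiproliferative co-regulator that also brings the deadenylation machinery to mRNAs, had 333, 373 and 436 CPM in DXZ 1 to 3, against 129, 212, 181 and 159 CPM in saline 1 to 4. The lowest DXZ library was well above the highest saline library. It averaged 381 ± 52.1 CPM in DXZ kidneys (SD, n = 3) and 170.1 ± 34.96 CPM in saline kidneys (SD, n = 4), a log2 fold change of 1.16 (SE 0.18, edgeR BH-adjusted p = 0.0215). Psrc1 (ENSMUSG00000068744; chromosome 3, 108383839 to 108388231, plus strand) had 45.8, 50.6 and 37.9 CPM in DXZ 1 to 3, against 8.77, 24.1, 21.4 and 13.2 CPM in saline 1 to 4. Its groups did not overlap, although the saline libraries alone spread from 8.77 to 24.1 CPM. The log2 fold change was 1.41 (SE 0.32, edgeR BH-adjusted p = 0.0446); besides the 3 libraries named above, it lost its call without DXZ 1, without saline 2 and without saline 3.

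Cdkn1a (ENSMUSG00000023067; chromosome 17, 29090976 to 29100727, plus strand) encodes p21, the cyclin-dependent kinase inhibitor through which p53 stops the cell cycle. It had 743, 889 and 760.0 CPM in DXZ 1 to 3, against 152, 494, 579.9 and 482 CPM in saline 1 to 4. All DXZ libraries were above all saline libraries, and saline 1 was far below the other 3 saline libraries. Its log2 fold change of 0.90 (SE 0.38, edgeR BH-adjusted p = 0.189) did not pass the test. Leaving out saline 1 gave a fold change of 0.62, and leaving out saline 1 together with DXZ 1 gave 0.67 (edgeR BH-adjusted p = 0.0395). Gtse1, a microtubule-binding protein that also moves p53 out of the nucleus, had 27.7, 30.8 and 22.4 CPM in DXZ 1 to 3, against 8.60, 20.3, 14.1 and 9.76 CPM in saline 1 to 4, and Ckap2, a spindle-associated protein, had 11.4, 18.9 and 13.6 CPM in DXZ 1 to 3, against 3.27, 9.81, 6.78 and 6.17 CPM in saline 1 to 4. Neither gene's groups overlapped. Their log2 fold changes were 1.03 and 1.17 (edgeR BH-adjusted p = 0.0737 and 0.0815; both called by DESeq2).

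The groups of the stress kinases and of cyclin G1 overlapped. Plk2, a polo-like kinase induced by stress, had 95.2, 101 and 56.8 CPM in DXZ 1 to 3, against 37.7, 69.3, 53.6 and 51.5 CPM in saline 1 to 4, a log2 fold change of 0.67 (edgeR BH-adjusted p = 0.136) in which DXZ 3 lay inside the saline range. Its relative Plk3 averaged 68.6 ± 9.03 CPM in DXZ kidneys (SD, n = 3) and 59.8 ± 4.37 CPM in saline kidneys (SD, n = 4), with a log2 fold change of 0.20 (edgeR BH-adjusted p = 0.311), 0.10 without DXZ 3. Ccng1, cyclin G1, which directs a phosphatase to Mdm2, is a gene of high level in every library: 1125, 1412 and 1087 CPM in DXZ 1 to 3, against 834, 1242, 1151 and 1058 CPM in saline 1 to 4. Only DXZ 2 exceeded the saline range, and the log2 fold change of 0.17 (95% interval -0.23 to 0.58) was 0.03 without it. The plot of CPM in each library sets 8 of the genes side by side.

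**Figure D2:**
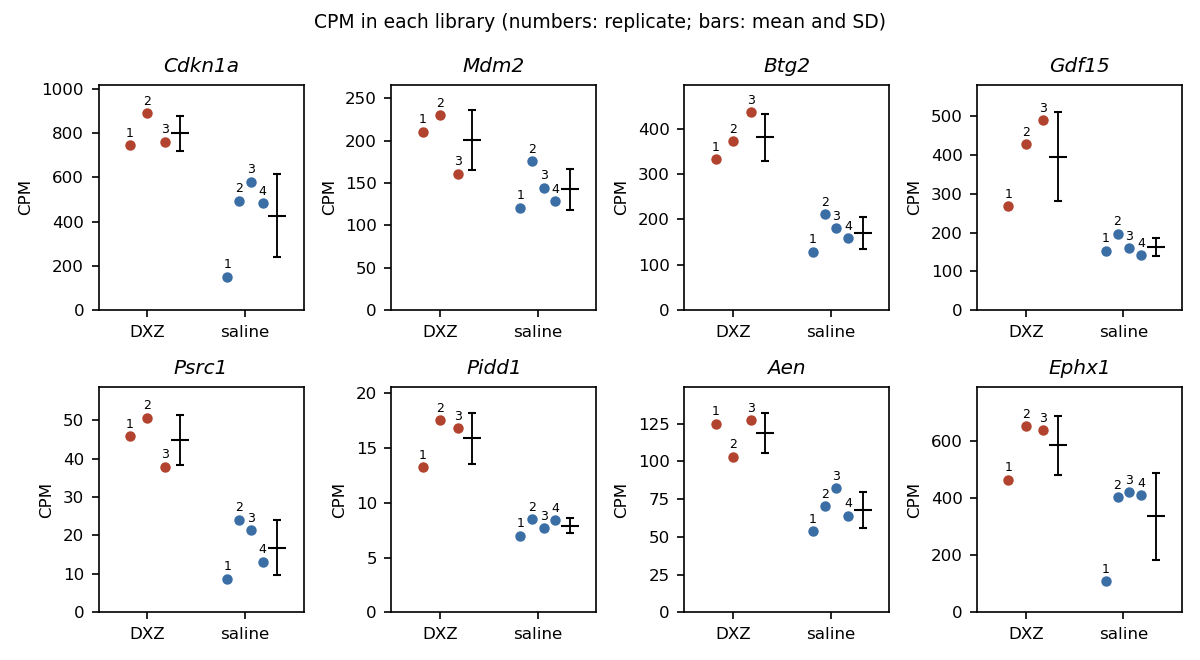
CPM of 8 p53 pathway genes in each library, DXZ left of saline, on axes that start at 0; small numbers give the replicate and the bars beside the points the mean and SD. Btg2, Gdf15, Psrc1, Pidd1, Aen, Cdkn1a and Ephx1 do not overlap between groups, Mdm2 does, and saline 1 lies far below the other saline libraries for Cdkn1a and Ephx1.

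Many p53 target genes carry a p53 response element, a pair of 10-base half-sites, and the promoters were read to show where such elements lie in genes that sat higher together. RefSeq promoter windows of GRCm38.p6, from 250 bases before to 50 bases after an annotated start, matched 29 of the 32 genes in 37 windows; Zmat3, Trp53inp1 and Perp had no entry. A 20-base element was counted where 2 copies of the p53 half-site consensus stood side by side with no spacer and at most 2 mismatches in all, with the C and the G of each 4-base core kept. The consensus is its own reverse complement, so 1 scan reads both strands. By this rule 5 of the 29 genes (17.2%) held an element, as did 106 of 27025 genes (0.392%). A perfect single half-site was found in 13 of the 29 genes (44.8%) and in 9.55% of all genes. A perfect half-site can be part of an element, so the counts overlap, and the genes were listed as p53 targets to begin with. The 5 elements are shown 5′ to 3′ on the gene's strand, with the 4-base core of each half-site in capitals.
Cdkn1a chr17:29090928-29090947: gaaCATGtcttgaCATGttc
Ccng1 chr11:40755462-40755481: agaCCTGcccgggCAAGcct
Gtse1 chr15:85859945-85859964: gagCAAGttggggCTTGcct
Ckap2 chr8:22186003-22186022: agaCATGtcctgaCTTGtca
Zfp365 chr10:67912706-67912725: agaCTAGgctgggCAAGact
The elements of Cdkn1a, Ccng1 and Gtse1 had 1 mismatch and those of Ckap2 and Zfp365 had 2. Counted from the annotated start whose window holds the element, with the base before it as -1, they begin at -51 in Cdkn1a, -195 in Ccng1, -203 in Ckap2, -63 in Zfp365 and -1 in Gtse1. None of the 5 genes with an element passed the edgeR test, while their log2 fold changes ran from 0.17 for Ccng1 to 1.37 for Zfp365. At an unadjusted p below 0.05, 4 of the 5 were higher, as were 19 of the 32 genes (59.4%) and 14.0% of all tested genes.

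The window of another annotated Cdkn1a start, downstream (250 bases before it: chr17:29093519-29093768), held neither an element nor a perfect half-site and is not printed. The 250 bases before the Cdkn1a start whose window holds the element are printed, with the element and a separate perfect half-site upstream of it in capitals. Below them are the 250 bases before the start of Btg2, which rose and in which the scan found neither.
Cdkn1a chr17:29090729-29090978: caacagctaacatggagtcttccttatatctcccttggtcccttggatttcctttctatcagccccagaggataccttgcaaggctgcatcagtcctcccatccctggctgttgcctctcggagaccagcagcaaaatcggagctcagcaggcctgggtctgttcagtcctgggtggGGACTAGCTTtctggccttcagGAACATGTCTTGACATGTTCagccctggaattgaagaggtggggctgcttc
Btg2 chr1:134079156-134079405: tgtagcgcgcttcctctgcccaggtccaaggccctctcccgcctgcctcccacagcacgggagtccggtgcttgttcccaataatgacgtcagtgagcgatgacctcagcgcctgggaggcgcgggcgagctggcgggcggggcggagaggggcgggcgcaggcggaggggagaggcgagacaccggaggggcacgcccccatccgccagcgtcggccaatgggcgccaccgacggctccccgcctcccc
The printed Cdkn1a stretch is 54.0% G and C and the printed Btg2 stretch 73.2%. Among the other genes called higher, Aen held 1 perfect half-site, gggCTTGtcc (chr7:78895937-78895946), which lies between the starts of its 2 windows. Around p53 itself, Mdm2 held gaaCTTGcct (chr10:117710935-117710944) and Trp53 ggaCTTGccc (chr11:69580284-69580293). These matches are letters in a window and not measured binding, and many known p53 elements, such as those in the first intron of Mdm2, lie outside such short windows.

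Genes of cell death and survival signalling formed the largest group. Of 9, 2 rose by edgeR's test, Aen and Pidd1 (22.2%, against 3.24% of all tested genes). The median log2 fold change of the 9 was 0.81. For 6 of the 9 every DXZ library lay above every saline library (66.7%, against 12.8% of all tested genes). Pidd1 (ENSMUSG00000025507; chromosome 7, 141438113 to 141444025, minus strand), whose product assembles the platform that activates caspase-2, had 13.2, 17.5 and 16.8 CPM in DXZ 1 to 3, against 6.99, 8.50, 7.70 and 8.40 CPM in saline 1 to 4. The 4 saline libraries sat close together and every DXZ library was above them. It averaged 15.8 ± 2.29 CPM in DXZ kidneys (SD, n = 3) and 7.90 ± 0.702 CPM in saline kidneys (SD, n = 4), a log2 fold change of 1.004 (SE 0.15, edgeR BH-adjusted p = 0.0209). Aen (ENSMUSG00000030609; chromosome 7, 78895854 to 78911209, plus strand), a nuclease that degrades DNA and RNA in dying cells, had 125, 103 and 128 CPM in DXZ 1 to 3, against 54.0, 70.2, 82.3 and 64.2 CPM in saline 1 to 4. The groups did not overlap, and DXZ 2, the highest library for most other genes of the list, was the lowest DXZ library here. Its log2 fold change was 0.81 (SE 0.15, edgeR BH-adjusted p = 0.0304), and it also lost its call without saline 2.

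Perp, a membrane protein of desmosomes that takes part in p53-driven death, had 212, 326 and 228 CPM in DXZ 1 to 3, against 126, 185, 168 and 142 CPM in saline 1 to 4. Phlda3, which competes with the survival kinase Akt for membrane lipids, had 167, 199.7 and 155 CPM in DXZ 1 to 3, against 59.2, 119, 122 and 95.8 CPM in saline 1 to 4. For both genes all DXZ libraries were above all saline libraries, and edgeR's adjusted p was 0.0633 for Perp (log2 fold change 0.72) and 0.0824 for Phlda3 (log2 fold change 0.81). Trp53inp1, a p53-induced protein of the nucleus and of autophagy, had 177, 382 and 294 CPM in DXZ 1 to 3, against 123, 155, 194 and 156 CPM in saline 1 to 4. DXZ 2 had more than any other library while DXZ 1 lay below saline 3, and the log2 fold change was 0.86 (SE 0.25, edgeR BH-adjusted p = 0.0845). DESeq2 called all 3 of these genes. Without DXZ 1 both Perp (edgeR BH-adjusted p = 0.0417) and Trp53inp1 (edgeR BH-adjusted p = 0.0215) passed.

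Eda2r, the receptor of the ectodysplasin form EDA-A2, lies on the X chromosome and had 44.8, 61.6 and 36.2 CPM in DXZ 1 to 3, against 7.57, 39.8, 34.6 and 22.6 CPM in saline 1 to 4. Saline 1 was at 0.234 of the mean of the other 3 saline libraries, the lowest such ratio among the 32 genes. The log2 fold change was 0.86 (95% interval -0.22 to 1.95) with all libraries and 0.56 without saline 1. Apaf1, the scaffold of the apoptosome, averaged 19.6 ± 3.62 CPM in DXZ kidneys (SD, n = 3) and 13.3 ± 3.00 CPM in saline kidneys (SD, n = 4), with overlap. Zmat3, an RNA-binding zinc finger protein, averaged 109.7 ± 15.9 CPM in DXZ kidneys (SD, n = 3) and 78.8 ± 17.2 CPM in saline kidneys (SD, n = 4), and Ei24, a membrane protein of the endoplasmic reticulum, averaged 305 ± 28.1 CPM in DXZ kidneys (SD, n = 3) and 255 ± 29.4 CPM in saline kidneys (SD, n = 4). Neither of the last 2 genes overlapped between groups, yet the edgeR adjusted p was 0.132 for Apaf1 (log2 fold change 0.56), 0.157 for Zmat3 (log2 fold change 0.48) and 0.242 for Ei24 (log2 fold change 0.26, 0.17 without DXZ 2).

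Among the 8 metabolic and secreted members, 1 rose by edgeR's test, Gdf15 (12.5%, against 3.24% of all tested genes). The median log2 fold change of the 8 was 0.27. For 3 of the 8 every DXZ library lay above every saline library (37.5%, against 12.8% of all tested genes). Gdf15 (ENSMUSG00000038508; chromosome 8, 70629393 to 70632456, minus strand), a circulating hormone of the TGF-beta family that reports cell stress to the brainstem, had 268, 428 and 489.8 CPM in DXZ 1 to 3, against 153, 197, 160.4 and 142 CPM in saline 1 to 4. The lowest DXZ library was above the highest saline library, and within the DXZ group DXZ 1 was well below the other 2. Gdf15 averaged 395 ± 115 CPM in DXZ kidneys (SD, n = 3) and 163 ± 23.7 CPM in saline kidneys (SD, n = 4), a log2 fold change of 1.28 (SE 0.21, edgeR BH-adjusted p = 0.0224). Rap2b, a small GTPase, had 24.6, 30.7 and 17.8 CPM in DXZ 1 to 3, against 7.74, 16.2, 12.6 and 8.52 CPM in saline 1 to 4, a log2 fold change of 1.11 (SE 0.29, edgeR BH-adjusted p = 0.061; called by DESeq2). Over 54.5% of its exon bases Rap2b overlaps B430305J03Rik on the opposite strand, which had 0 counts on average, and whether reads were counted by strand is not given in the sources used here.

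Ephx1, the microsomal epoxide hydrolase that detoxifies reactive epoxides, had 463, 651 and 636 CPM in DXZ 1 to 3, against 109, 402, 419.8 and 409 CPM in saline 1 to 4. The groups did not overlap, and saline 1 lay far below 3 nearly equal saline libraries. Its log2 fold change of 0.80 (95% interval -0.15 to 1.75, edgeR BH-adjusted p = 0.266) was 0.51 without saline 1, and 0.65 (edgeR BH-adjusted p = 0.0234) without saline 1 and DXZ 1. For the remaining 5 genes the groups overlapped. Sesn1 and Sesn2, the sestrins that restrain the growth kinase complex mTORC1, averaged 21.8 ± 2.85 CPM in DXZ kidneys (SD, n = 3) and 18.4 ± 3.58 CPM in saline kidneys (SD, n = 4) for Sesn1, and 133 ± 14.1 CPM in DXZ kidneys (SD, n = 3) and 129 ± 12.7 CPM in saline kidneys (SD, n = 4) for Sesn2. Sesn2 had the smallest fold change of the list, 0.05 on the log2 scale (95% interval -0.22 to 0.32), and it was -0.02 without saline 2; that of Sesn1 was 0.24 (edgeR BH-adjusted p = 0.422), 0.14 without DXZ 3. Tigar, which diverts glucose carbon from glycolysis to the pentose phosphate pathway, averaged 10.5 ± 1.26 CPM in DXZ kidneys (SD, n = 3) and 8.69 ± 0.774 CPM in saline kidneys (SD, n = 4), with a log2 fold change of 0.28 and an edgeR BH-adjusted p = 0.291. Dcxr, a carbonyl reductase abundant in kidney tubules, averaged 248 ± 23.2 CPM in DXZ kidneys (SD, n = 3) and 219.9 ± 11.8 CPM in saline kidneys (SD, n = 4), with a log2 fold change of 0.17 that was 0.09 without DXZ 3 and an edgeR BH-adjusted p = 0.33. Ddit4l, another inhibitor of mTORC1, had 39.5, 59.0 and 44.4 CPM in DXZ 1 to 3, against 17.7, 40.7, 45.8 and 53.3 CPM in saline 1 to 4. Apart from saline 1, its saline libraries lay inside the DXZ range, and the log2 fold change of 0.27 was 0.03 without saline 1 and 0.46 without saline 4.

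Of the 3 genes of DNA repair and replication, 0 passed edgeR's adjusted threshold, with a median log2 fold change of 0.47. At an unadjusted p below 0.05 all 3 were higher, against 14.0% of all tested genes. Zfp365, whose human counterpart protects cells from replication stress, had 19.1, 20.9 and 8.97 CPM in DXZ 1 to 3, against 3.33, 11.1, 7.58 and 3.23 CPM in saline 1 to 4. DXZ 1 and DXZ 2 were above every saline library but DXZ 3 was below saline 2, and the log2 fold change of 1.37 carried the widest interval of the list, 0.27 to 2.47 (edgeR BH-adjusted p = 0.122; called by DESeq2). Polk, the polymerase kappa that copies past damaged bases, had 31.7, 35.8 and 26.9 CPM in DXZ 1 to 3, against 18.7, 25.5, 26.6 and 20.3 CPM in saline 1 to 4. Ercc5, the XPG nuclease of nucleotide excision repair, the pathway that removes platinum adducts, had 41.6, 60.8 and 42.3 CPM in DXZ 1 to 3, against 28.1, 38.4, 40.4 and 35.03 CPM in saline 1 to 4. The groups of Polk and Ercc5 touched closely without overlapping, with log2 fold changes of 0.47 and 0.44 (edgeR BH-adjusted p = 0.118 and 0.158); that of Ercc5 was 0.23 without DXZ 2.

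Much of the spread among the 32 genes followed the library. Saline 1 was the lowest of the 7 libraries for 24 of the 32 genes (75%), as it was for 20.0% of all tested genes, and DXZ 2 was the highest for 23 (71.9%), as it was for 19.2% of all tested genes. Saline 1 had less than the mean of saline 2 to 4 for 30 of the 32 genes. Its ratio to that mean had a median of 0.738, against 0.995 over all tested genes, and was below 0.5 for 7 genes: Cdkn1a, Psrc1, Ckap2, Eda2r, Ddit4l, Ephx1 and Zfp365. Within the DXZ group, DXZ 3 was the highest library for Aen, Btg2, Dcxr, Gdf15, Plk3, Sesn1 and Sesn2 and the lowest for 13 others, among them Zfp365, Rap2b, Plk2, Eda2r and Mdm2. The map of levels by library shows both patterns.

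**Figure D3:**
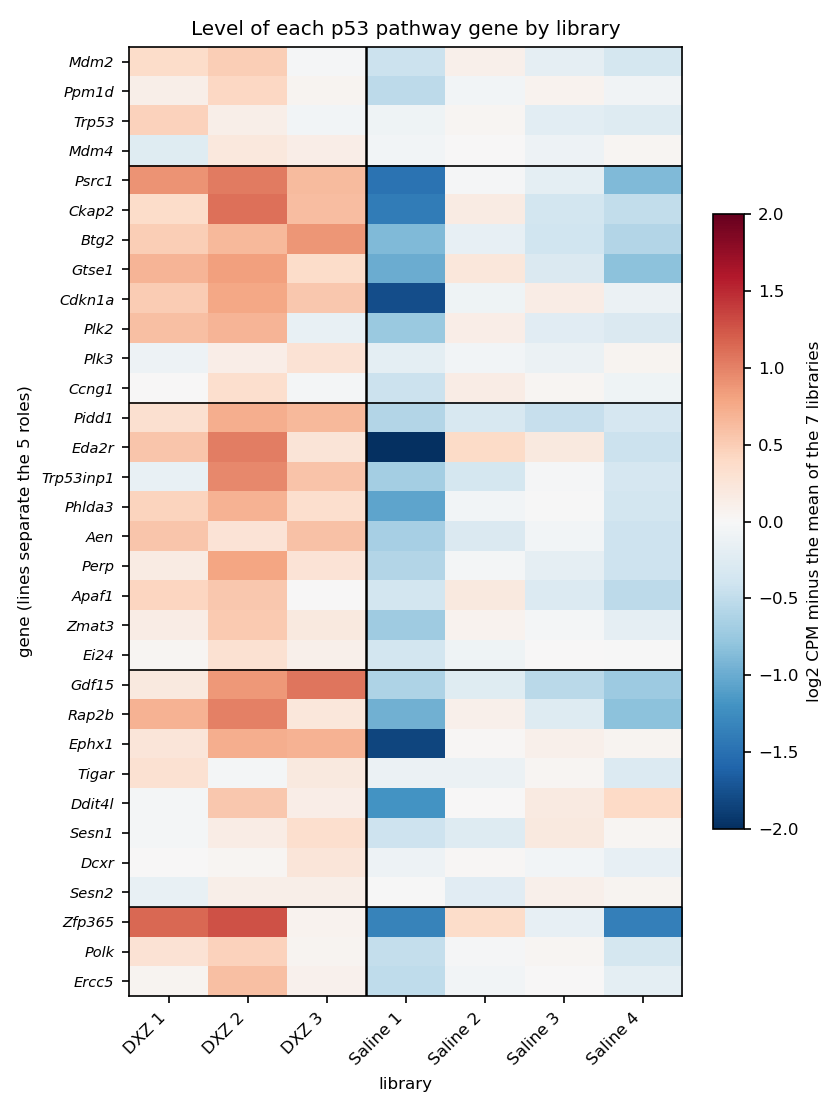
Level of each p53 pathway gene in each library, as log2 CPM less the mean of the 7 libraries, DXZ libraries on the left, genes grouped by role. Red is above and blue below the mean, and saline 1 holds the darkest blue for Eda2r, Ephx1 and Cdkn1a. DXZ 3 is paler than DXZ 1 and DXZ 2 for Zfp365, and for Plk2 it is pale blue where they are red. It is darker than both for Gdf15 and Btg2.

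A score of the 32 genes, their mean log2 CPM less its mean over the 7 libraries, was 0.29, 0.57 and 0.30 in DXZ 1 to 3, against -0.73, -0.01, -0.09 and -0.32 in saline 1 to 4. The same score of the injured tubule markers was 0.75, 0.99 and 0.54 in DXZ 1 to 3, against -1.27, -0.03, -0.21 and -0.77 in saline 1 to 4, so both lists put DXZ 2 highest and saline 1 lowest. The score of the proximal tubule markers put them the other way round, with -0.67, -1.47 and -0.88 in DXZ 1 to 3, against 1.54, 0.59, 0.21 and 0.67 in saline 1 to 4. Slc34a1, the phosphate transporter of the proximal tubule, was at 512, 119 and 382 CPM in DXZ 1 to 3 and 4332, 1881, 1352 and 2391 CPM in saline 1 to 4, and Krt8, a keratin of injured tubules, at 538, 596 and 452 CPM in DXZ 1 to 3 and 196, 269.8, 262 and 194 CPM in saline 1 to 4. The part of these cell type differences in the values of the p53 genes was not tested. Macrophage, fibroblast and endothelial scores followed another order, with DXZ 1 high (1.46, 1.54 and 0.79) and DXZ 2 and DXZ 3 low in each. Their summed levels overlapped between the groups, at 33.6 to 243.5 CPM in DXZ kidneys and 75.1 to 168 CPM in saline kidneys for macrophages, 57.45 to 813.4 and 143.2 to 552.6 CPM for fibroblasts, and 97.6 to 597.9 and 317.9 to 556.5 CPM for endothelium. Proliferation markers summed to 9.09 to 52.2 CPM in DXZ kidneys and 9.81 to 30.5 CPM in saline kidneys, with 0 of 9 tested called by edgeR and 0 with an unadjusted p below 0.05, while their highest level was again in DXZ 1. Among single markers, Lrp2 had a log2 fold change of -1.64 (edgeR BH-adjusted p = 0.0234), Havcr1 of 1.67 and Lcn2 of 2.02 (edgeR BH-adjusted p = 0.207 and 0.145), while Pecam1, Adgre1, Csf1r, Col1a1, Mki67 and Top2a had adjusted p of 0.445 or more. Of 8 distal nephron markers 2 fell. Of the tested markers of podocytes (6), urothelium (6), neutrophils (5) and lymphocytes (2) edgeR called 0. At an unadjusted p below 0.05, 2 podocyte markers were lower, 2 urothelial markers were higher, and 0 of the neutrophil and lymphocyte markers passed. The median log2 fold changes were -0.26, 1.89, 0.60 and -0.44 in this order, and every tested marker had the sign of its list's median. Urothelial markers summed to 13.1 to 57.8 CPM in DXZ kidneys and 1.89 to 31.5 CPM in saline kidneys. No marker of these lists was at 0 in every library.

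**Figure D4:**
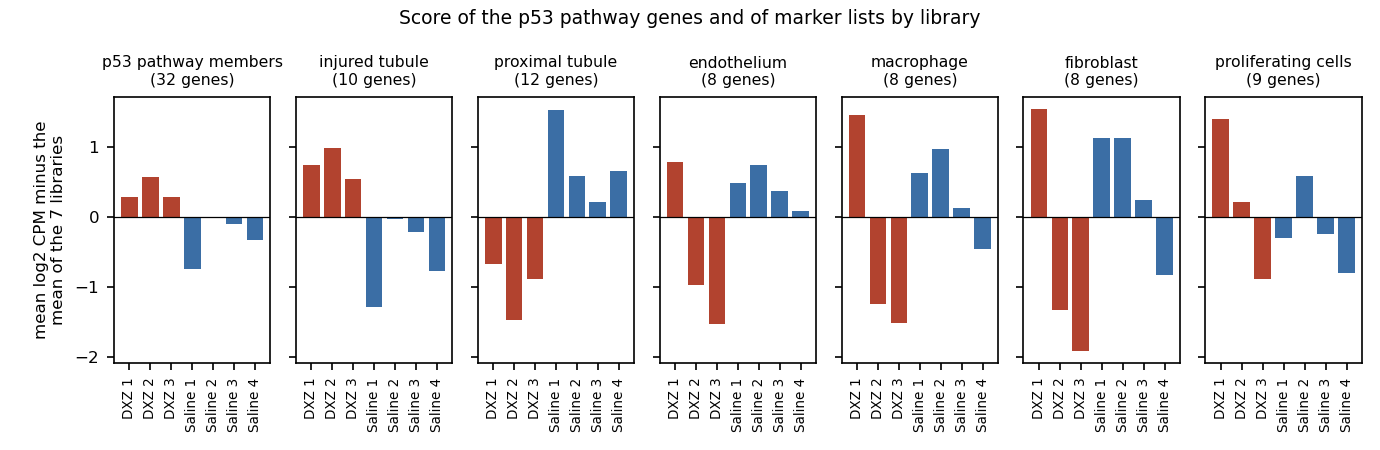
Score (mean log2 CPM less the mean of the 7 libraries) of the 32 p53 pathway genes and of 6 marker lists in each library, DXZ libraries in red on the left and saline libraries in blue. The p53 score runs from -0.73 in saline 1 to 0.57 in DXZ 2, as the injured tubule score does from -1.27 to 0.99, while the macrophage and fibroblast scores separate DXZ 1 from DXZ 2 and DXZ 3.

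Levels between genes can be compared per gene length, in the deposited FPKM (a level scaled to gene length and library size). Ccng1 was the most abundant of the 32, at 342 ± 53.6 FPKM in DXZ kidneys (SD, n = 3) and 304 ± 49.3 FPKM in saline kidneys (SD, n = 4). Ephx1 was at 297 ± 56.4 FPKM in DXZ kidneys (SD, n = 3) and 171 ± 76.9 FPKM in saline kidneys (SD, n = 4). Cdkn1a was at 223 ± 24.8 FPKM in DXZ kidneys (SD, n = 3) and 119.7 ± 52.8 FPKM in saline kidneys (SD, n = 4), Dcxr at 215 ± 21.1 FPKM in DXZ kidneys (SD, n = 3) and 191 ± 9.58 FPKM in saline kidneys (SD, n = 4), and Gdf15 at 212 ± 63.3 FPKM in DXZ kidneys (SD, n = 3) and 87.7 ± 12.5 FPKM in saline kidneys (SD, n = 4). In DXZ kidneys Ccng1 and Ephx1 differed by less than the SD of either, as did Cdkn1a, Dcxr and Gdf15 among themselves when the larger SD is taken. In saline kidneys the order was Ccng1, Dcxr, Ephx1, Cdkn1a and Gdf15, in which Dcxr and Ephx1, Ephx1 and Cdkn1a, and Cdkn1a and Gdf15 each lay apart by less than the larger SD of the pair. Apaf1 was the least abundant in DXZ kidneys, at 2.15 ± 0.402 FPKM in DXZ kidneys (SD, n = 3) and 1.46 ± 0.327 FPKM in saline kidneys (SD, n = 4); in saline kidneys Zfp365 was lower by less than its SD, with 3.10 ± 1.22 FPKM in DXZ kidneys (SD, n = 3) and 1.203 ± 0.716 FPKM in saline kidneys (SD, n = 4). Trp53 itself was at 12.6 ± 2.18 FPKM in DXZ kidneys (SD, n = 3) and 10.2 ± 0.927 FPKM in saline kidneys (SD, n = 4).

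Other p53 targets, among them the BCL2 family genes and the death receptors left out of the list above, were less uniform. Of 30 listed, 28 were tested (Spata18 and Gls2 had too few reads). Of the 28, 4 rose (14.3%, against 3.24% of all tested genes) and 1 fell (3.57%, against 2.31%), with a median log2 fold change of 0.35. Every DXZ library lay above every saline library for 12 of them (42.9%, against 12.8% of all tested genes) and below for 1. At an unadjusted p below 0.05, 13 were higher (46.4%, against 14.0%) and 1 lower. Sfn, which encodes the cell cycle regulator 14-3-3 sigma, had 96.2, 111 and 113 CPM in DXZ 1 to 3, against 24.6, 52.1, 43.4 and 34.8 CPM in saline 1 to 4 (log2 fold change 1.46, SE 0.23, edgeR BH-adjusted p = 0.0215). Sertad1, a cell cycle co-regulator, Klhl26, a ubiquitin ligase adaptor, and Abhd4, a lipid hydrolase, rose by 0.75, 0.62 and 0.79 on the log2 scale (edgeR BH-adjusted p = 0.0215, 0.0215 and 0.0489), and Dglucy, an enzyme of D-glutamate breakdown, fell by 0.53 (edgeR BH-adjusted p = 0.0486). These 5 genes lost their calls without DXZ 2 and without saline 4, 4 of them (all but Sertad1) also without DXZ 3, and Abhd4 and Dglucy also without any single one of saline 1 to 3. The pro-apoptotic BCL2 family genes Bax, Bbc3 and Pmaip1 did not pass but did not overlap between groups either. Bax had 104, 112 and 106 CPM in DXZ 1 to 3, against 61.3, 78.0, 87.4 and 79.9 CPM in saline 1 to 4 (edgeR BH-adjusted p = 0.0588). Bbc3, which encodes Puma, had a log2 fold change of 0.49 and Pmaip1, which encodes Noxa, of 0.93 (edgeR BH-adjusted p = 0.0853 and 0.0598). The death receptor gene Tnfrsf10b, named after its values were seen, had a log2 fold change of 1.01 (edgeR BH-adjusted p = 0.0588). Every DXZ library lay above every saline library for it. Several well-known targets showed no separation. The death receptor Fas, the repair gene Ddb2, the nucleotide-supplying Rrm2b and the mitochondrial reductase Fdxr had log2 fold changes of 0.03, -0.34, -0.04 and 0.01 (edgeR BH-adjusted p = 0.934, 0.439, 0.894 and 0.977), all with overlap; those of Fas, Rrm2b and Fdxr change sign with the library left out.

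Genes upstream of p53 were spread around no change. Of 15 kinases, ligases and cofactors, 14 were tested (Cdkn2a was near 0), and edgeR called 0, with 0 higher and 2 lower at an unadjusted p below 0.05; the log2 fold changes ran from -0.42 to 0.44 with a median of -0.05. For 2 of the 14 (14.3%, against 11.3% of all tested genes) every DXZ library lay below every saline library, and these 2 are named after their values were seen. Prkdc, a kinase of double-strand break repair, had 12.1, 11.5 and 10.9 CPM in DXZ 1 to 3, against 16.8, 14.7, 14.3 and 15.6 CPM in saline 1 to 4 (log2 fold change -0.42, edgeR BH-adjusted p = 0.0768). Cop1, a ubiquitin ligase that marks p53 for degradation, had 43.0, 49.3 and 47.2 CPM in DXZ 1 to 3, against 56.6, 58.1, 57.1 and 57.2 CPM in saline 1 to 4 (log2 fold change -0.30, edgeR BH-adjusted p = 0.0696). The DNA damage kinases Atm, Atr, Chek1 and Chek2 had log2 fold changes of -0.19, -0.04, 0.36 and 0.44 (edgeR BH-adjusted p = 0.58, 0.876, 0.623 and 0.427), all with overlap. These kinases act by phosphorylation, which transcript levels do not show. Of the p53 relatives, Trp73 had too few reads to test. Trp63 was at 1.69, 1.09 and 2.36 CPM in DXZ 1 to 3 and 0.459, 0.833, 1.1 and 0.646 CPM in saline 1 to 4. Its log2 fold change was 1.17 (edgeR BH-adjusted p = 0.124), on 8 to 40 reads per library. Trp63 is also 1 of the 6 urothelial markers, and the part of urothelial cells in its values was not tested.

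Some of the 32 genes also answer to other stress programmes, and those lists were set beside them. Sesn2 and Gdf15 belong to the integrated stress response, the programme of the factor Atf4 that follows stalled translation. Of its 10 other listed genes 3 rose (30.0%, against 3.24% of all tested genes), with a median log2 fold change of 0.79. Every DXZ library lay above every saline library for 6 of the 10 (60.0%, against 50% of the 32 and 12.8% of all tested genes). The 3 called were Atf3, Ppp1r15a and Ddit3, higher by 1.05, 0.97 and 0.71 (edgeR BH-adjusted p = 0.0238, 0.0398 and 0.0445). Atf4 itself had a log2 fold change of 0.23 (edgeR BH-adjusted p = 0.372) and Trib3 of 1.01 (edgeR BH-adjusted p = 0.0549). Btg2, Plk2 and Plk3 are also immediate early genes, transcribed within minutes of many stimuli. Of the 11 other listed immediate early genes 2 rose (18.2%), with a median log2 fold change of 0.57. Every DXZ library lay above every saline library for 5 of the 11 (45.5%). The 2 called were Fosl1, higher by 1.96, and Ier2, higher by 0.78 (edgeR BH-adjusted p = 0.0353 and 0.0333). All 5 of these called stress genes lost their calls without DXZ 2, DXZ 3, saline 3 or saline 4, some of them also without others. The part of either programme in the values of the p53 genes was not tested.

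**Figure D5:**
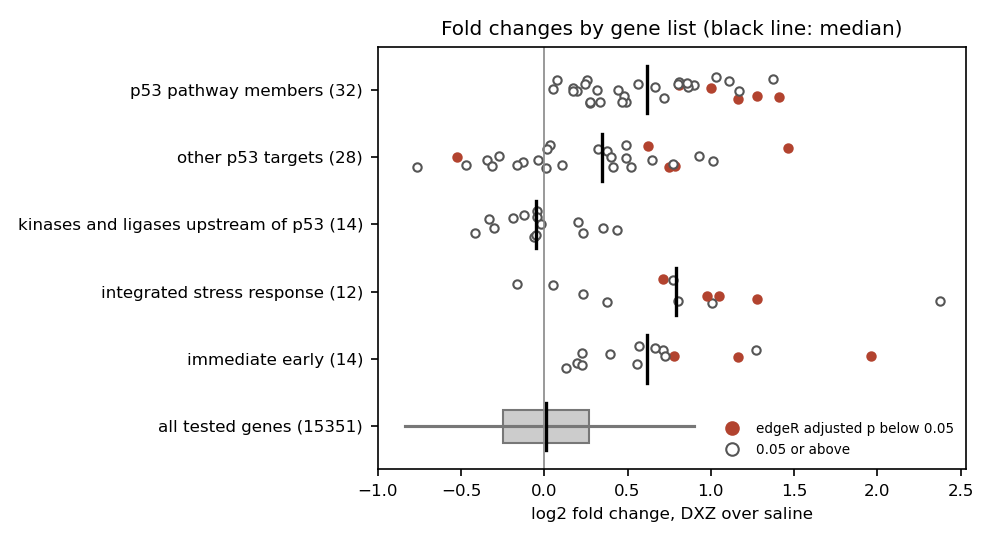
log2 fold change, DXZ over saline, of each tested gene in the list of 32 p53 pathway genes and in 4 related lists, with the median of each list as a black line; filled points have an edgeR adjusted p below 0.05. The box at the bottom covers the 25th to 75th percentile of all 15351 tested genes and its line the 5th to 95th; the medians are 0.62 for the 32 genes, 0.35 for other p53 targets and -0.05 for genes upstream of p53, and the 2 stress lists are drawn with the 5 genes they share with the 32.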

How the data were processed

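Bulk RNA-seq of 7 kidney samples was analysed from the deposited tables. The deposited counts are whole-number reads per gene, not normalized. The deposited FPKM values equal those counts divided by gene length and 1 constant per library (all within 0.1%) and add no second measurement. The submitters' processing notes name HISAT2, StringTie and mm9 without roles; which program counted reads, and whether by strand, is not given in the sources used here. The coordinates in the tables match GENCODE M21 of GRCm38 for 98.3% of shared genes and for all 32 members, and are given as GRCm38.

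Samples were grouped by title. Of 54532 genes, 27180 had a count and 15351 passed filterByExpr. DXZ was compared with saline by the quasi-likelihood test of edgeR 4.0.16 (R 4.3.3) after TMM scaling, with no covariate, Benjamini-Hochberg adjustment over all tested genes and a threshold of 0.05. CPM come from edgeR's cpm function with TMM scaling; scores use log2 CPM with a prior count of 2. An overlap means that the group ranges cross. Alternatives were limma 3.58.1, DESeq2 1.42.0, other scalings and filters, a replicate block, and each library left out. In 5 simulations with 200 of 15351 genes changed, the test recovered 47.2% of 2-fold and 79.0% of 4-fold changes, and 5.68% of calls were false. The simulations drew each gene on its own, without shifts shared by the genes of a library, so these rates need not hold for the data. Replicates differed by 14.0 to 90.4 times the counting noise (chi-square over its degrees of freedom), and no library repeated another.

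The 32 members, the other lists and the tests were chosen with earlier results of these data known. All members are named, whatever their result, as are every called gene of the p53, stress response and immediate early lists and a fixed set of well-known pathway genes and cell type markers.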

Additional observations from a re-analysis of the deposited data

Results flagged for a closer look

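Ephx1 in saline 1 lay far from the other saline libraries. It had 109 CPM there, against 402 to 419.8 CPM in saline 2 to 4, and the gap to the nearest library was 0.941 of the group's range, above Dixon's 95% critical value for 4 samples. It was the only 1 of 33 sets of saline values examined in this way (the 32 genes and their score) past that value, and chance puts about 1 in 20 past it. Saline 1 was also the library with the highest proximal tubule score, and the part of that in the Ephx1 value was not tested.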

How the results depend on the processing

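The number of calls moved more than the fold changes did. The median log2 fold change of the 32 genes lay between 0.46 and 0.77 in all 18 alternatives. Of 853 genes called in all by edgeR and 5 of the 32, DESeq2 called 2011 and 12, limma on log2(FPKM + 1) without a filter 145 and 0 (17 at an unadjusted p below 0.05), and the fit with saline 1 and DXZ 1 both left out, chosen after seeing the data, 1332 and 9. With each library left out in turn the counts ran from 1 to 1574 of all genes and from 0 to 6 of the 32. The replicate block called 85 genes and 0 of the 32 (19 at an unadjusted p below 0.05). Replicate numbers gave correlations of 0.26, -0.09 and 0.23 between same-numbered libraries, and DXZ 1 correlated best with saline 2 (0.43). With so few libraries in each group, these values cannot decide whether the numbers pair the samples. Of 576 alternative values of the 32 genes, 528 kept their direction and call, 29 lost the call, 16 gained it and 3 changed sign, Mdm4 once and Sesn2 in a pair of fits. Of 424 such values of 24 other named genes, 326, 72, 7 and 19 did so.

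With a library left out, the Mdm4 log2 fold change ran from -0.021 to 0.202, the Sesn2 log2 fold change from -0.015 to 0.138, the Rrm2b log2 fold change from -0.110 to 0.072, the Fdxr log2 fold change from -0.071 to 0.120, the Fas log2 fold change from -0.059 to 0.170 and the Atr log2 fold change from -0.114 to 0.076. Sign also changed for Fdxr with the replicate block (-0.002) and with both libraries left out (-0.001), for Fas with limma-voom (-0.095), with the block (-0.009) and with both left out (-0.146), and for Atr with limma-voom (0.026) and with both left out (0.130). The causes of these changes were not tested. In the simulations many 2-fold changes went uncalled. In the data, replicates differed by more than the counting noise, by a measure taken per pair of libraries and not per gene. The part of counting error in the values of single genes, such as those with few reads, was not tested. The other scalings, filters and dispersion estimates called 5 to 7 of the 32.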
